A study of Mus musculus with 12 samples.

Results

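The guanylate-binding proteins (GBPs) and the immunity-related GTPases (IRGs) are 2 families of interferon-inducible GTPases. The genes described here are 10 of them, taken by symbol from the deposited table of 55487 genes. They are Gbp2, Gbp3, Gbp5, Gbp6, Gbp7 and Gbp9 among the GBPs, and Irgm1, Irgm2, Igtp and Iigp1 among the IRGs. All 10 were found in the table, and all 10 passed the filter on low counts that left 18019 genes for testing. RNA was measured in breast tumours of 12 C57BL/6J mice carrying MMTV-PyMT, 1 library per mouse. In this model a viral promoter active in mammary epithelium (MMTV) expresses the polyomavirus middle T antigen there, and every tumour of both groups carries that transgene. The groups were 6 tumours from Bad3SA mice, labelled PyMT-Bad3SA, and 6 from mice with wild-type Bad, labelled PyMT-Bad+/+ and called Bad_WT here. BAD is a pro-apoptotic BCL2 family protein that phosphorylation holds inactive, and Bad3SA is a form in which its regulatory serines are replaced by alanine. The labels do not give the zygosity of the allele or say which cells carry it. End-point ages were 22.857 to 31.143 weeks in Bad3SA mice and 21.286 to 27.143 weeks in Bad_WT mice. Polyadenylated RNA of tumour pieces was sequenced, so tumour, immune and stromal cells were measured together.

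GBPs are large GTPases related to dynamin, and IRGs are smaller ones. Interferon-gamma binds its receptor and signals through the kinases JAK1 and JAK2 to GAS elements in promoters. IRF1, itself induced by interferon-gamma, binds ISRE elements, through which type I interferons also act with IRF9. In mouse macrophages and epithelial cells the induced GTPases gather on membranes around intracellular bacteria and parasites and help to break them. Of the IRGs, Irgm1, Irgm2 and Igtp (also called Irgm3) are regulators that sit on the cell's own membranes and hold the effector IRGs inactive there, and Iigp1 (also called Irga6) is such an effector. In tumours these genes serve as a readout of interferon signalling.

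The genes lie in a few clusters on GRCm38, in the coordinates of GENCODE release M21. Gbp5, Gbp7, Gbp3 and Gbp2 are on chromosome 3, on the plus strand, Gbp5 starting at 142493978 and Gbp2 ending at 142638008. Gbp9 (105077630 to 105139539) and Gbp6 (105270702 to 105293698) are on the minus strand of chromosome 5. Irgm1 stands alone among the members on chromosome 11, on the minus strand, while Igtp (58199556 to 58207591) and Irgm2 share another part of chromosome 11 on the plus strand. RefSeq promoter windows of GRCm38.p6, which run from 250 bases before to 50 bases after a start, matched 7 of the 10 members, and Gbp3 had 2 windows. The 120 bases before the start are shown because these promoters carry the elements through which interferon is known to act. Capitals mark matches to an ISRE-like motif, GAAA-NN-GAAA on either strand, or to a GAS-like motif, TTCNNNGAA. For Gbp3 the window of the upstream start is given, since the other window held neither motif.
Gbp2, chr3:142620543-142620662, plus strand: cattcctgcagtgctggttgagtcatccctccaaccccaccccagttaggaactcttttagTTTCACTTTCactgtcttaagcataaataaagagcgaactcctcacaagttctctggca
Gbp3, chr3:142559924-142560043, plus strand: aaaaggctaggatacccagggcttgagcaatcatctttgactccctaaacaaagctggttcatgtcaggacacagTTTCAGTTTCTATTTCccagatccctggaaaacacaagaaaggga
Gbp5, chr3:142496814-142496933, plus strand: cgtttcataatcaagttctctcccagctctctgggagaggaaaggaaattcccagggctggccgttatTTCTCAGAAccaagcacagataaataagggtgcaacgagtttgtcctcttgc
Gbp7, chr3:142530216-142530335, plus strand: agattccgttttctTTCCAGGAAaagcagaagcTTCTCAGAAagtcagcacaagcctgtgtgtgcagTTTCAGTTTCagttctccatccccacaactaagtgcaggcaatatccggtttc
Irgm1, chr11:48871421-48871540, minus strand: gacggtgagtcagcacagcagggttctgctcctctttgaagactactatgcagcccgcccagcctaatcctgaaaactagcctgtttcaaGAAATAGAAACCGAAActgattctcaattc
Irgm2, chr11:58214857-58214976, plus strand: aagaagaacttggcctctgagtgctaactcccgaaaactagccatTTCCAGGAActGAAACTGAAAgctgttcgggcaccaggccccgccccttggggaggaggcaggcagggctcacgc
Igtp, chr11:58199436-58199555, plus strand: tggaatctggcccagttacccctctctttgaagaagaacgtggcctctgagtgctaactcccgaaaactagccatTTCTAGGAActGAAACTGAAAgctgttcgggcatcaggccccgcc

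An ISRE-like match was in the full 300-base window of all 7 members with a window, against 3.44% of all 32851 promoter windows. A GAS-like match was in 4 of the 7, against 8.30% of all windows, and both motifs were in the same 4, Gbp5, Gbp7, Igtp and Irgm2, against 0.454% of all windows. In Gbp5 the ISRE-like match lay farther upstream than the stretch shown, beginning 165 bases before the start. The matches of Gbp3 and of Irgm1 are each a pair of ISRE-like matches that overlap. Igtp and Irgm2 carry the same arrangement, a GAS-like match followed by an ISRE-like match. The longest identical stretch of their windows, 61 bases, begins at position -11 of Igtp and -41 of Irgm2, downstream of the matches. It runs to the end of the Igtp window, so its full length is not known from these windows. The stretches that hold the matches are also alike, with single letters differing, also inside the GAS-like match. A match describes these letters and does not show that a factor bound there.

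**Figure D1:**
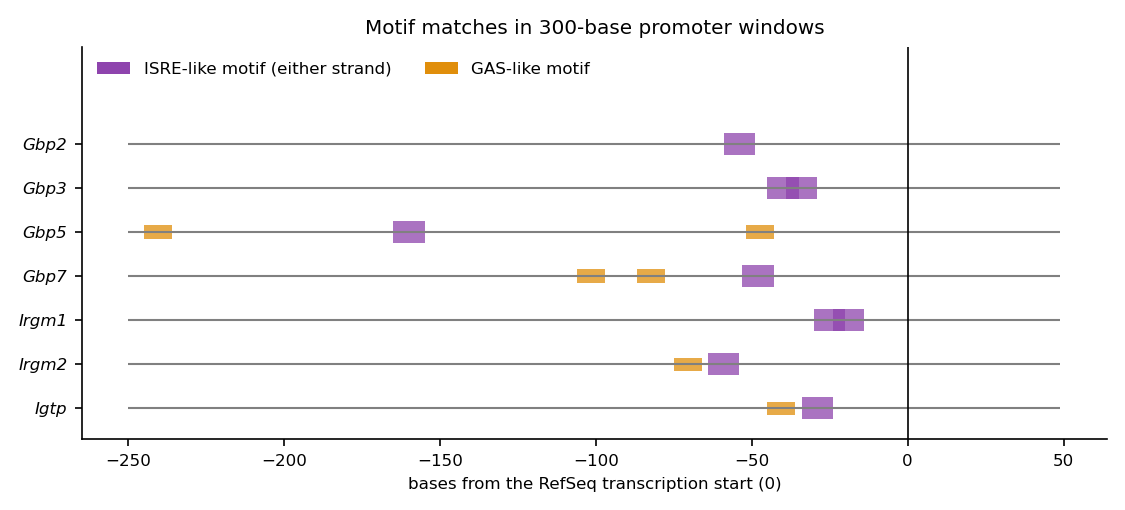
Positions of motif matches in the 300-base promoter windows of 7 members, in bases from the RefSeq transcription start at 0, with the ISRE-like motif in purple and the GAS-like motif in orange. Darker purple in Gbp3 and Irgm1 is an overlap of 2 matches, and all 7 windows hold an ISRE-like match.

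The depth was 58096172 to 83296370 counts per tumour, so 3 counts were worth 0.0346 to 0.0544 CPM, the unit that scales counts to the normalised library size. The p-values measure the spread between these 12 mice. Epithelial markers (Epcam, Krt8, Krt18, Cdh1, Elf5, Krt14 and Krt5) summed to 4272 to 5971 CPM in Bad3SA tumours and 4347 to 5320 CPM in Bad_WT tumours, and none of the 7 was at 0. Of all genes tested, 112 were higher and 137 lower in Bad3SA by the edgeR quasi-likelihood test at a Benjamini-Hochberg adjusted p below 0.05, which is 0.622% and 0.76% of 18019. One library stood apart for the GTPase genes. Bad_WT 6, from the youngest mouse, was the lowest of the 12 tumours for all 10 members, while it was the lowest for 19.3% of all genes tested. Values of the members, and of some other genes, are therefore also given without it.

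The GBP and IRG transcripts were more abundant on average in Bad3SA tumours, but no member passed the test. All 10 had a positive log2 fold change of Bad3SA over Bad_WT, with a median of 0.51 beside 0.00326 over all genes tested, and 50.4% of all genes were positive. The 10 share tumours and are correlated, so they are not separate pieces of evidence. The number passing at an adjusted p under 0.05 was 0 of 10 in edgeR, against 0.622% of all genes called higher. At an unadjusted p under 0.05 it was 2, Gbp6 and Gbp9, against 7.18% of all genes on the higher side. DESeq2 called 1, Gbp9, against 2.02% of all genes called higher by it, and limma voom with quality weights called 2, Gbp6 and Gbp9, against 1.28%. In the authors' deposited table Gbp9 had an adjusted p of 0.0415 and Gbp6 of 0.0829, and 1.91% of its genes were called higher in Bad3SA. For no member did all Bad3SA tumours lie above all Bad_WT tumours, a separation that 0.96% of the genes tested showed. Without Bad_WT 6 the median log2 fold change was 0.295, all 10 members were positive, and all 10 overlapped between the genotypes. None of them passed in edgeR, and 4 (Gbp6, Gbp9, Irgm1 and Igtp) had an unadjusted p under 0.05, against 6.61% of all genes on the higher side.

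**Figure D2:**
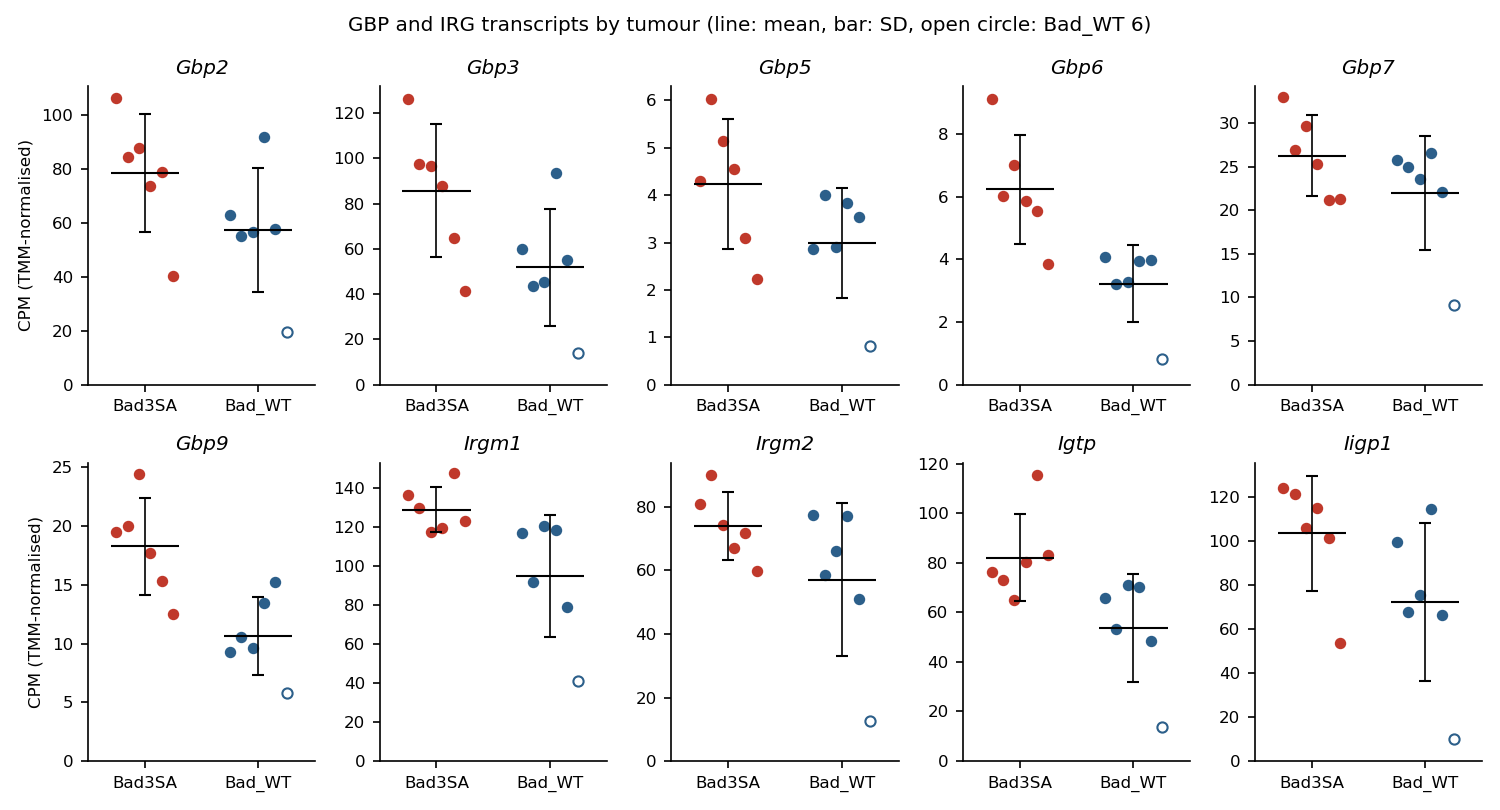
CPM of each member in the 6 Bad3SA and 6 Bad_WT tumours (points), with the mean (line) and SD (bar) of each genotype, on linear axes that start at 0. The open circle is Bad_WT 6, the lowest tumour in all 10 panels, and the genotypes overlap in every panel.

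Gbp9 and Gbp6, the members on chromosome 5, had the smallest p-values. Gbp9 was at 12.5, 18.6 and 24.5 CPM (lowest, median and highest) in Bad3SA tumours, against 5.82, 10.1 and 15.3 CPM in Bad_WT tumours. In 5 of the 6 Bad3SA tumours the level was above every Bad_WT tumour, and Bad3SA 6 was the exception. The log2 fold change was 0.78 (SE 0.22, edgeR adjusted p = 0.127), from means of 18.3 ± 4.12 CPM in Bad3SA and 10.7 ± 3.32 CPM in Bad_WT (SD, n = 6 each). Gbp6 was at 3.85, 5.94 and 9.11 CPM in Bad3SA tumours, against 0.817, 3.62 and 4.06 CPM in Bad_WT tumours. Again only Bad3SA 6 lay within the Bad_WT range. Its log2 fold change was 0.95 (SE 0.33, edgeR adjusted p = 0.195). Without Bad_WT 6 these differences were 0.65 (SE 0.19, edgeR adjusted p = 0.141) for Gbp9 and 0.75 (SE 0.21, edgeR adjusted p = 0.126) for Gbp6. Gbp6 is hard to count alone: 64.5% of the 100-base windows of its annotated transcripts also occur in other genes, chiefly Gm43302, Gbp10 and Gbp11. Gm43302, which shares exons with Gbp6, was listed at 0 in all 12 tumours. For Gbp9 the share was 1.65%, with Gbp4 and Gbp8, which overlap it on the same strand.

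The chromosome 3 GBPs include abundant members, Gbp2 and Gbp3, and the scarcest one, Gbp5. Gbp2, which in mice is recruited to the vacuoles of Toxoplasma, was at 40.4, 81.6 and 106 CPM (lowest, median and highest) in Bad3SA tumours, against 19.5, 57.2 and 92.1 CPM in Bad_WT tumours. Gbp3, its neighbour, was at 41.3, 92.1 and 126 CPM in Bad3SA tumours, against 14.2, 50.2 and 93.3 CPM in Bad_WT tumours. For both genes Bad3SA 6 was the lowest Bad3SA tumour and Bad_WT 4 the highest Bad_WT tumour, so that the ranges overlapped widely. The log2 fold changes were 0.46 (SE 0.30, edgeR adjusted p = 0.448) for Gbp2 and 0.72 (SE 0.36, edgeR adjusted p = 0.335) for Gbp3. Without Bad_WT 6 they were 0.28 (SE 0.22) and 0.53 (SE 0.27). Gbp5, which promotes assembly of the NLRP3 inflammasome, was scarce, at 2.24 to 6.04 CPM in Bad3SA tumours and 0.817 to 3.99 CPM in Bad_WT tumours. Of the Bad3SA tumours 4 lay above every Bad_WT tumour, and the log2 fold change was 0.50 (SE 0.35, edgeR adjusted p = 0.479), or 0.30 (SE 0.25) without Bad_WT 6. Gbp7, linked in mice to assembly of the phagocyte oxidase, differed least of the 10. It was at 21.2 to 33.0 CPM in Bad3SA tumours and 9.08 to 26.6 CPM in Bad_WT tumours. On the log2 scale the difference was 0.25 (SE 0.22, edgeR adjusted p = 0.572), and 0.0928 (SE 0.131) without Bad_WT 6. Of its 5612 windows of 100 bases, 562 occur elsewhere, in Gm43802, which overlaps it, and in Gbp3.

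Among the regulatory IRGs, Irgm1, which in mice is needed for resistance to mycobacteria and for autophagy, was steady in Bad3SA tumours. It was at 117, 126 and 147 CPM (lowest, median and highest) in Bad3SA tumours, against 40.8, 104 and 121 CPM in Bad_WT tumours. The lowest Bad3SA tumours lay inside the Bad_WT range, where Bad_WT 3 was the highest. The log2 fold change was 0.45 (SE 0.21, edgeR adjusted p = 0.320) with all tumours and 0.29 (SE 0.12, edgeR adjusted p = 0.309) without Bad_WT 6. Igtp, which is found on the endoplasmic reticulum and on lipid droplets, was at 65.0, 78.1 and 115 CPM in Bad3SA tumours, against 13.8, 59.6 and 71.0 CPM in Bad_WT tumours. Only Bad3SA 3 lay within the Bad_WT range, and Bad3SA 5 was the highest. Its log2 fold change was 0.61 (SE 0.30, edgeR adjusted p = 0.335), and 0.41 (SE 0.16) without Bad_WT 6. Irgm2, its neighbour, was at 59.8, 73.1 and 90.1 CPM in Bad3SA tumours, against 12.6, 62.4 and 77.4 CPM in Bad_WT tumours. On the log2 scale this difference was 0.37 (SE 0.31, edgeR adjusted p = 0.554), and 0.16 (SE 0.14) without Bad_WT 6. The genotypes overlapped more for Irgm2 than for Igtp, since 2 Bad3SA tumours exceeded every Bad_WT tumour for Irgm2 and 5 did for Igtp. That contrast was not tested. The pair share 162 exon bases in the annotation, and 5.16% of the 100-base windows of Igtp occur in Irgm2 transcripts.

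The effector Iigp1 (chromosome 18, 60376027 to 60392634, plus strand), which loads onto parasite vacuoles in mouse cells, was at 53.4, 111 and 124 CPM (lowest, median and highest) in Bad3SA tumours, against 9.88, 71.7 and 115 CPM in Bad_WT tumours. Bad_WT 6 had 605 counts of it, and the next Bad_WT tumour was at 66.3 CPM. In the other direction Bad3SA 6, at 53.4 CPM, lay below every Bad_WT tumour other than Bad_WT 6. The log2 fold change was 0.52 (SE 0.40, edgeR adjusted p = 0.525) and 0.29 (SE 0.22, edgeR adjusted p = 0.536) without Bad_WT 6. No 100-base window of Iigp1, Irgm1 or Gbp2 occurred in another gene.

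**Figure D3:**
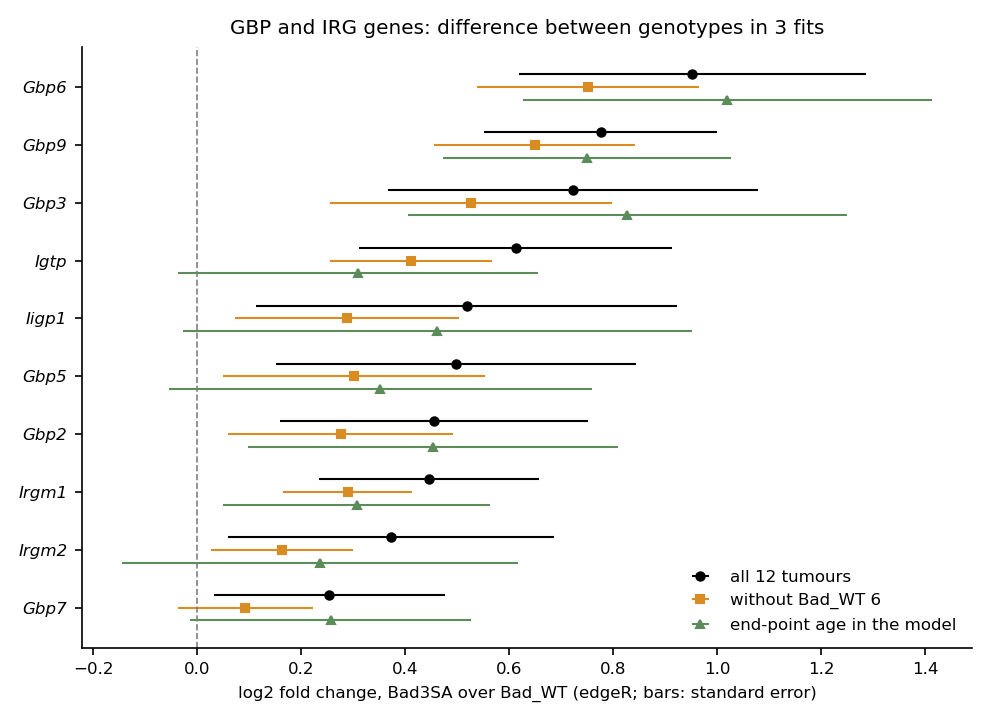
Log2 fold change of Bad3SA over Bad_WT for each member with its standard error, with all 12 tumours (black circles), without Bad_WT 6 (orange squares) and with age at end-point fitted (green triangles). All values are above 0, and all 10 are lower without Bad_WT 6 than with all tumours.

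End-point age left the direction in place and widened the errors. With age in the model the log2 fold changes ran from 0.24 for Irgm2 to 1.02 for Gbp6, all 10 positive, and none passed (smallest edgeR adjusted p = 0.467, for Gbp9). Igtp moved most, to 0.31 (SE 0.35). Against this, 0.277% of all genes were called higher in that model. Age and genotype are linked in these mice, Bad3SA mice being older on average (27.5 against 24.0 weeks), so their effects could be separated only in part.

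Per kilobase of exon the order of the members was similar in both genotypes. Igtp led with 40.6 ± 8.63 CPM per kilobase in Bad3SA and 26.6 ± 10.7 in Bad_WT (SD, n = 6 each), followed by Gbp2 with 31.3 ± 8.66 and 22.8 ± 9.19 CPM per kilobase. Gbp3, Irgm1, Irgm2 and Iigp1 formed a middle group between 17.8 and 26.2 CPM per kilobase in Bad3SA and 12.4 and 16.3 in Bad_WT. Gbp7 and Gbp9 stood at 4.68 and 3.53 CPM per kilobase in Bad3SA and 3.92 and 2.06 in Bad_WT. Gbp6 and Gbp5 were the scarcest, at 1.05 and 0.637 CPM per kilobase in Bad3SA and 0.541 and 0.451 in Bad_WT. Several neighbours did not keep their order from tumour to tumour. Igtp exceeded Gbp2 in 4 of 6 Bad3SA tumours and 4 of 6 Bad_WT tumours, and Gbp3 exceeded Irgm1 in 4 of 6 and 2 of 6. Iigp1 exceeded Gbp7, and Gbp7 exceeded Gbp9, in all 12 tumours. Summed over the 10 members, the level was 124 to 197 CPM per kilobase in Bad3SA tumours and 34.1 to 169 in Bad_WT tumours, with Bad_WT 6 lowest.

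**Figure D4:**
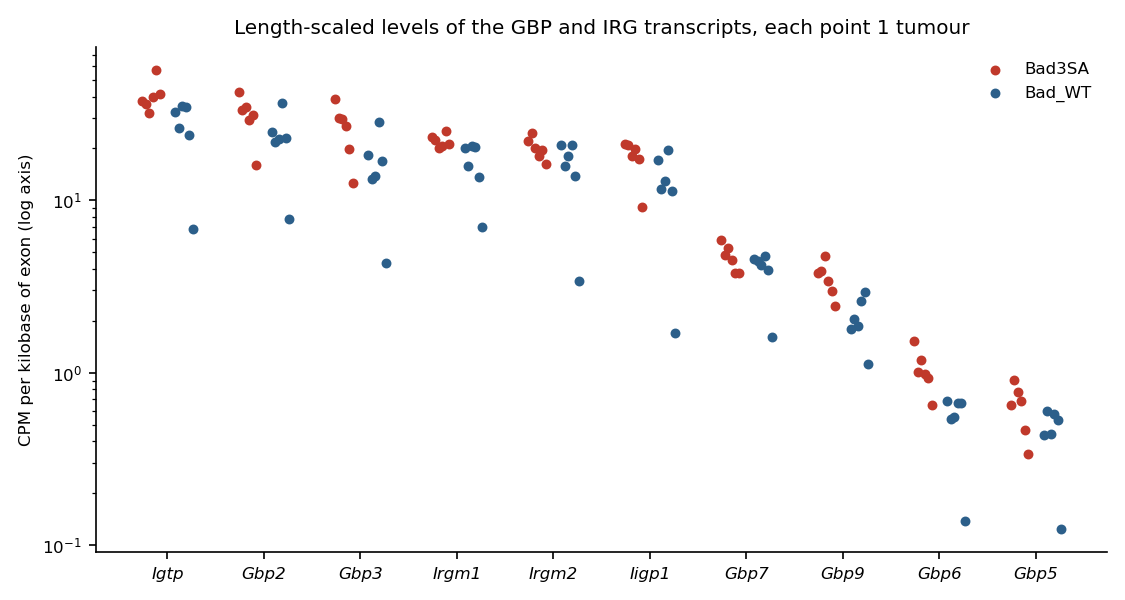
CPM per kilobase of exon (log axis) of each member in every tumour, ordered by mean level, with Bad3SA in red left of Bad_WT in blue. Gbp7, Gbp9, Gbp6 and Gbp5 step down below the other 6, and the lowest Bad_WT point of each gene is Bad_WT 6.

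Most pairs of members were correlated from tumour to tumour. Over the 12 tumours the Pearson correlation of log2 CPM had a median of 0.898 over the 45 pairs of members, and a range of 0.649 to 0.976. After centring each genotype on its own mean the median was 0.880. Both values include Bad_WT 6, and without it the median was 0.643 with a lowest pair of -0.198, or 0.631 with a lowest pair of -0.605 after centring. The 7 pairs below 0 after centring without Bad_WT 6 each joined a GBP with Igtp (5 pairs) or Irgm1 (2 pairs). In those 11 tumours, uncentred, Gbp6 and Gbp9 stood at 0.851 and the 6 pairs on chromosome 3 at 0.663 to 0.937. Among the IRGs, Igtp was closer to Irgm1 (0.892) than to its neighbour Irgm2 (0.420), and Irgm2 was close to Iigp1 (0.840). The genes of each pair were measured in the same libraries, and no test was made. Within Bad3SA, different tumours led different members. Bad3SA 1 was the highest of the 12 for Gbp2, Gbp3, Gbp6, Gbp7 and Iigp1, Bad3SA 2 for Gbp5 and Irgm2, Bad3SA 3 for Gbp9, and Bad3SA 5 for Irgm1 and Igtp. Bad3SA 6 was the lowest Bad3SA tumour for 7 of the 10.

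**Figure D5:**
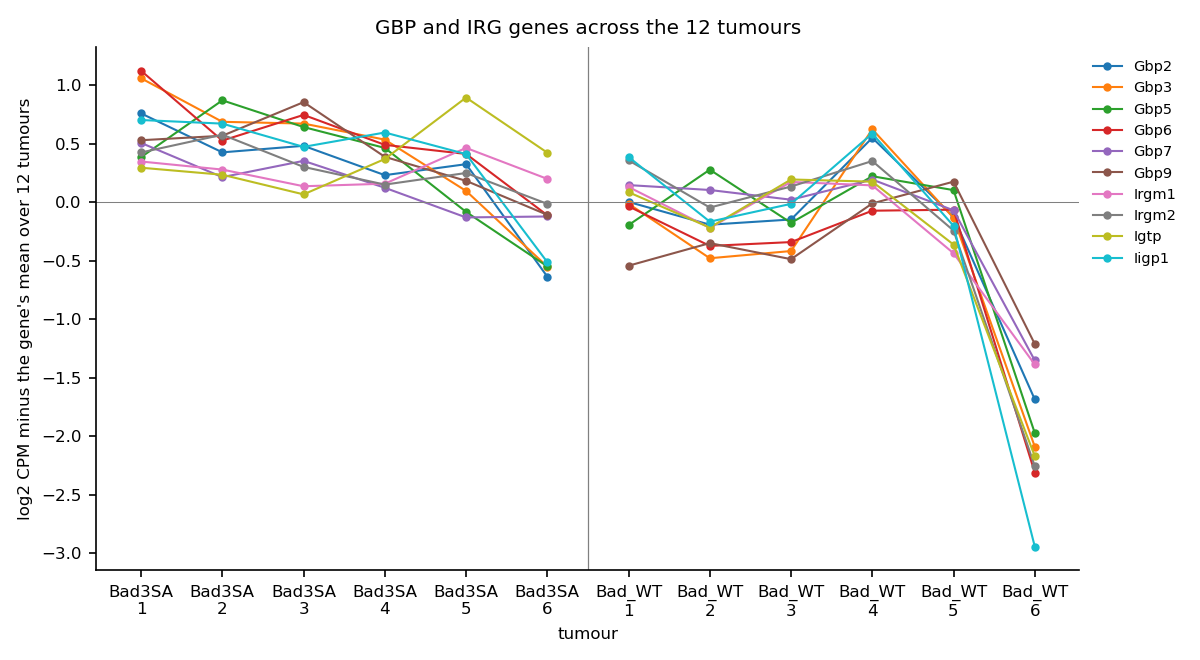
Log2 CPM of each member in each tumour, less the gene's mean over the 12 tumours, with Bad3SA tumours left of Bad_WT tumours. All lines drop in Bad_WT 6, and Bad3SA 1 to 5 lie mostly above 0.

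Among genes averaging 1 or more in log2 CPM, those that followed the members most closely were other interferon-stimulated genes. By Pearson correlation with the mean of the scaled members over 12 tumours, the 6 nearest were Oasl1 (0.988), Oasl2 (0.985), Lgals3bp (0.983), Cmpk2 (0.982), Oas3 (0.981) and Irf7 (0.980). Oasl1, Oasl2, Oas3 and Irf7 are best known as type I interferon targets. Without Bad_WT 6 the 6 values were 0.912 to 0.971 over 11 tumours, and these genes did not pass between genotypes (log2 fold changes of 0.53 to 1.01). These correlations are descriptions, since the nearest genes were picked for them.

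The remaining genes of the families were also mostly positive. Among other GBP and IRG genes 13 were found and 10 were tested. Of these 9 were positive, against 50.4% of all genes, and none passed in edgeR, with a median log2 fold change of 0.60. Tgtp2 and Gvin1, among the 9, were negative without Bad_WT 6, at -0.0120 and -0.0237. They were also negative with age fitted, at -0.29 and -0.22. At an unadjusted p under 0.05 there were 4 of 10, all higher, Gbp4, Gbp8, Gbp10 and Gm12250, against 7.18% of all genes on the higher side. With age fitted Gbp4, Gbp8, Gbp10 and Gm12250 stood at 0.42 (SE 0.31), 0.62 (SE 0.38), 0.88 (SE 0.45) and 0.55 (SE 0.42). Without Bad_WT 6 the 4 stood at 0.51 (SE 0.20), 0.63 (SE 0.26), 0.66 (SE 0.36) and 0.63 (SE 0.22). Gbp10 then had an edgeR unadjusted p of 0.0905. Gbp4, Gbp8 and Gbp10 lie beside Gbp6 and Gbp9 on chromosome 5, and their log2 fold changes were 0.67 (SE 0.27), 0.80 (SE 0.31) and 0.81 (SE 0.37), with edgeR adjusted p of 0.250, 0.241 and 0.302. Gbp10 was scarce, at 15 to 32 counts per Bad3SA tumour and 5 to 27 per Bad_WT tumour, and it shares 100-base windows with Gbp6. Gm12250, which in mouse encodes the effector known as Irgb10 although it is annotated as a pseudogene, was at 7.05 to 12.01 CPM in Bad3SA tumours and 0.882 to 8.78 CPM in Bad_WT tumours (log2 fold change 0.85, SE 0.38, edgeR adjusted p = 0.292). Tgtp1, another effector, was negative at -0.12 (SE 0.45), its highest value of 13.2 CPM being in Bad_WT 3. Gbp2b, which lies between Gbp3 and Gbp2, was below the filter. It had 792 counts in Bad3SA 2 and 0 to 26 counts in each of the other 11 tumours, while Gbp3 and Gbp2 in Bad3SA 2 were at 97.5 and 84.5 CPM, within the range of the other Bad3SA tumours. The atlastins Atl1, Atl2 and Atl3, dynamin-related relatives that are not induced by interferon, had log2 fold changes of 0.0791, -0.00339 and 0.00630.

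Interferon-gamma itself was barely detected. Ifng had 0 to 4 counts per tumour in Bad3SA and 0 to 7 in Bad_WT, and did not pass the filter, so that a difference in the ligand could not be detected at this depth. Its receptor genes Ifngr1 and Ifngr2 had log2 fold changes of -0.00685 (SE 0.114) and 0.0988 (SE 0.123). Il12a, a subunit of the cytokine that induces interferon-gamma, was at 0.242 to 2.43 CPM in Bad3SA tumours and 0.149 to 0.554 CPM in Bad_WT tumours (log2 fold change 1.71, SE 0.63, edgeR adjusted p = 0.214), with Bad3SA 4 and 5 the highest. With age fitted it stood at 1.00 (SE 0.74). Il12b, the other subunit of interleukin-12, stood at -0.56 (SE 0.51) and Il18, another inducer, at 0.0562 (SE 0.314).

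Among signal and transcription factor genes, Irf9 stood at 0.50 (SE 0.20, edgeR adjusted p = 0.259) and Irf1 at 0.24 (SE 0.14, edgeR adjusted p = 0.416), while Jak1, Jak2, Irf2 and Irf8 lay between -0.0551 and 0.17. None of the 7 genes examined passed in edgeR, and 1 had an unadjusted p under 0.05, Irf9, again against 7.18%. Irf9 stood at 0.37 (SE 0.16) without Bad_WT 6. With age fitted Irf9 stood at 0.51 (SE 0.25) and Irf1 at 0.067 (SE 0.17). Of 6 negative regulators none passed in edgeR, and 1 had an unadjusted p under 0.05, against 7.18% of all genes on the higher side. This was Usp18, which removes ISG15 and dampens type I receptor signalling (1.10, SE 0.42, edgeR adjusted p = 0.238). It stood at 0.88 (SE 0.31) without Bad_WT 6 and at 1.14 (SE 0.49) with age fitted. Ptpn6, a phosphatase gene, stood at 0.19 (SE 0.12), and Socs1, an inhibitor of JAK kinases, at 0.37 (SE 0.25), or -0.00873 and -0.0445 with age fitted.

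Among 12 other interferon-gamma targets tested, 8 were positive and 4 negative. At an unadjusted p under 0.05 there were 3 higher and 1 lower, against 7.18% and 9.02% of all genes. At an adjusted p under 0.05 edgeR called 1 higher in Bad3SA tumours and none lower. This was Nlrc5, the transactivator of MHC class I genes, at 24.6 to 57.4 CPM in Bad3SA tumours and 5.26 to 21.4 CPM in Bad_WT tumours, with no overlap (log2 fold change 1.76, SE 0.32, edgeR adjusted p = 0.0143). It passed without Bad_WT 6 (edgeR adjusted p = 0.0139). With age fitted its log2 fold change was 1.81 (SE 0.37), and it did not pass (edgeR adjusted p = 0.0722). The immunoproteasome gene Psmb9 and the peptide transporter gene Tap1 stood at 1.01 (SE 0.30, edgeR adjusted p = 0.138) and 0.84 (SE 0.21, edgeR adjusted p = 0.0691). Without Bad_WT 6 they stood at 0.85 (SE 0.25) and 0.70 (SE 0.16). Psmb9 did not overlap between genotypes, at 54.3 to 139 CPM in Bad3SA tumours and 14.6 to 48.97 CPM in Bad_WT tumours. With age fitted Psmb9 stood at 0.66 (SE 0.33) and Tap1 at 0.83 (SE 0.25). Ido1, which degrades tryptophan, went the other way, with a log2 value of -1.65 (SE 0.68, edgeR adjusted p = 0.263), and at -1.91 (SE 0.43, edgeR adjusted p = 0.0547) without Bad_WT 6. It was at 1.63 to 7.72 CPM in Bad3SA tumours and 0.359 to 37.9 CPM in Bad_WT tumours. Bad_WT 6 was the lowest of the 12, and the other Bad_WT tumours, at 9.76 to 37.9 CPM, were above every Bad3SA tumour. The chemokine genes Cxcl9 and Cxcl10 stood at 0.44 (SE 0.38) and -0.0247 (SE 0.26), and with age fitted at -0.0108 and -0.33. Without Bad_WT 6 Cxcl9 stood at 0.25 (SE 0.32) and Cxcl10 at -0.16 (SE 0.23). Ciita, the class II transactivator, stood at -0.0327 (SE 0.18). Over all 65 pathway genes tested, each counted once, 47 were positive, and 1 was called higher and none lower, against 0.622% and 0.76% of all genes.

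Genes that act with the GTPases were also tested. Of 14 partners on vacuole membranes, which include the autophagy conjugation genes and the enzymes that add lipid anchors, 10 were positive and none passed in edgeR. At an unadjusted p under 0.05 there were 2 higher and 2 lower, against 7.18% and 9.02% of all genes. Sqstm1, an autophagy receptor gene, stood at 0.27 (SE 0.10) and Rabggta, which encodes a geranylgeranyl transferase subunit, at 0.27 (SE 0.096), while the ubiquitin ligase gene Traf6 stood at -0.44 (SE 0.14) and the farnesyltransferase gene Fntb at -0.28 (SE 0.13). With age fitted Traf6 stood at -0.20 (SE 0.14) and Fntb at -0.11 (SE 0.16), and without Bad_WT 6 Fntb stood at -0.18 (SE 0.11). Of 9 inflammasome genes 8 were positive and none passed in edgeR, with a median of 0.28. At an unadjusted p under 0.05 there were 2, both higher, against 7.18% of all genes on the higher side. These were Casp4, the mouse caspase that senses lipopolysaccharide with the help of GBPs, at 0.88 (SE 0.30, edgeR adjusted p = 0.190), and the adaptor gene Pycard, at 0.66 (SE 0.29, edgeR adjusted p = 0.279). Casp1, the inflammasome protease gene, stood at 0.37 (SE 0.20). With age fitted the 3 stood at 0.50, 0.18 and -0.0152. Without Bad_WT 6 they stood at 0.69 (SE 0.20), 0.55 (SE 0.28) and 0.30 (SE 0.21), and Pycard then had an edgeR unadjusted p of 0.0761.

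Summed markers of immune and stromal cells overlapped between the genotypes. T cell markers summed to 18.3 to 31.8 CPM in Bad3SA tumours and 15.2 to 20.2 CPM in Bad_WT tumours, and 8 of 9 genes were positive. The exception was Lck (-0.17, SE 0.27), the largest part of the sum on average. It was at 4.78 to 7.40 CPM in Bad3SA tumours and 4.22 to 11.6 CPM in Bad_WT tumours. None of the 9 passed in edgeR, and 2, both higher, had an unadjusted p under 0.05, against 7.18% of all genes. With age fitted Trac and Trbc2 stood at -0.11 and -0.13. The other T cell markers then ran from 0.053 for Cd3e to 0.61 for Cd4. NK cell markers summed to 8.69 to 16.1 CPM in Bad3SA tumours and 5.65 to 12.9 CPM in Bad_WT tumours, with 6 of 8 positive. With age fitted Ncr1, Eomes, Klrk1, Klrb1c and Gzmb were negative, at -1.10 to -0.12. Nkg7, Prf1 and Gzma then stood at 0.11 to 0.24. Macrophage markers summed to 302 to 734 CPM in Bad3SA tumours and 266 to 740 CPM in Bad_WT tumours, with 6 of 8 positive. With age fitted Cd68 and Mertk stood at 0.19 and 0.21, and the other macrophage markers at -0.47 to -0.027. B cell markers summed to 0.831 to 1.63 CPM in Bad3SA tumours and 0.506 to 1.48 CPM in Bad_WT tumours. Dendritic cell markers summed to 4.34 to 8.18 CPM in Bad3SA tumours and 6.20 to 12.3 CPM in Bad_WT tumours, with 1 of 6 positive and 1, Zbtb46 (-0.45, SE 0.21), lower at an unadjusted p under 0.05, against 9.02% of all genes. Fibroblast markers ran from 213 to 1540 CPM in Bad3SA tumours and 224 to 1403 CPM in Bad_WT tumours, and endothelial markers from 81.5 to 171 CPM and 86.8 to 178 CPM. Bad_WT 6 was the lowest of the 12 for NK cell, B cell and macrophage markers and the second lowest for T cell and fibroblast markers, while it was inside the range of the other tumours for epithelial markers, at 4663 CPM. Its T cell sum of 15.4 CPM was mostly Lck, at 11.6 CPM the highest of the 12. Cd3d, Cd3e, Cd3g, Cd4, Cd8a, Cd8b1, Trac and Trbc2 were each lowest of the 12 in Bad_WT 6. No marker was at 0 in all tumours. The part of these cells in the GTPase values was not tested, and in whole tumours fewer cells of a type and less RNA per cell cannot be told apart.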

How the data were processed

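The authors deposited raw counts per Ensembl gene for each of the 12 tumours, as whole numbers. Reads had been handled with STAR 2.7.9a, fastp 0.23.1 and DESeq2 on build GRCm38, per the submitters' processing notes. The sources used here do not give how reads were assigned to genes or whether strand was used. The authors' deposited comparison holds log2 fold changes, standard errors and Wald scores, mean signal, and unadjusted and adjusted p-values, per the file headers. Only its p-values are printed. Its fold changes are Bad_WT over Bad3SA, since they correlate at a Spearman rho of -0.997 with those fitted here, across 17932 genes that are not independent.

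Every entry of the count table names a gene. Low genes were removed with edgeR's filterByExpr (edgeR 4.0.16, R 4.3.3), and counts were normalised with TMM and tested with the robust quasi-likelihood F test for genotype, with Benjamini-Hochberg adjustment over 18019 genes and a threshold of 0.05. Each SE was obtained as |log2 fold change| over the root of F. Log2 CPM uses a prior count of 2. CPM per kilobase divides by the union of a gene's exons in GENCODE M21. Alternatives were DESeq2 size factors, DESeq2 1.42.0, limma voom (3.58.1), no filter, a minimum of 1 CPM in 6 tumours, dispersion without robust shrinkage, age at end-point as a covariate, blocking on title number, and omission of single tumours. The fit was tested on simulated data before use. The 10 members, the other lists and the markers were chosen with earlier results of these data known. The genes named are the members, pathway genes that passed or had 1 of the 3 smallest p in their list, and the 6 genes most alike among those averaging 1 or more in log2 CPM. Pathway genes named beyond these, among them Gbp2b, Gbp10, Tgtp1, Ido1, Fntb, the chemokine genes and Ciita, were chosen after their values were seen. One gene of the pathway lists is not reported here. Depth was 58096172 to 83296370 counts per tumour.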

Additional observations from a re-analysis of the deposited data

Results flagged for a closer look

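Log2 CPM of the 10 members, Gbp2b and Nlrc5 was examined in each genotype for a tumour whose gap to its nearest neighbour was too large a part of the group's range by Dixon's 95% limit for 6 values. Chance passes this limit for about 1 in 20 groups, and 24 groups were examined. In Bad3SA tumours, Bad3SA 6 was low for Iigp1 (5.74 log2 CPM), and Bad3SA 2 was high for Gbp2b (3.28). In Bad_WT tumours, Bad_WT 6 was low for Gbp2 (4.29), Gbp5 (-0.244), Gbp6 (-0.244), Gbp7 (3.19), Irgm2 (3.66), Igtp (3.78) and Iigp1 (3.31). Gbp3, Gbp9 and Irgm1, for which Bad_WT 6 was also the lowest tumour, did not exceed the limit. These genes are correlated, so the values for Bad_WT 6 are not separate observations.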

How the results depend on the processing

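All 10 members kept a positive log2 fold change under each of the 20 alternatives, and 197 of the 200 values stayed on their side of the threshold. The other 3 passed, Gbp9 with DESeq2 (adjusted p = 0.0402) and Gbp9 and Gbp6 with limma voom (adjusted p = 0.0159 and 0.04999). The number of members called, all of them higher, was 1 with DESeq2 and 2 with limma voom, and 0 with each tumour left out. The median of the members ran from 0.295 to 0.665 when a tumour was left out, lowest without Bad_WT 6. Pathway genes called were 3 with DESeq2, 2 with limma voom and 0 with end-point age, and 1 to 2 with a tumour left out (2, Tap1 and Nlrc5, without Bad_WT 4). Over all genes 998 (479 higher, 519 lower) were called with DESeq2, 579 (231 and 348) with limma voom, 163 (86 lower) with at least 1 CPM in 6 tumours, 73 (50 and 23) with end-point age, and 147 to 315 with a tumour left out (73 to 153 higher and 61 to 162 lower). The count moved by over 1.5 times without Bad3SA 3 (151), Bad3SA 4 (148), Bad_WT 1 (158), Bad_WT 3 (161) and Bad_WT 5 (147). No pairing by title number was seen, since correlations of same-numbered deviations ran from -0.271 to 0.283 and only number 6 correlated best with its own number. Correlations of single tumours cannot exclude a pairing. With the replicate block 105 genes were called (63 higher, 42 lower), with no member among them. The members with an unadjusted p under 0.05 were 7 in that fit, against 2 in the main fit, and their smallest edgeR adjusted p was 0.171. The median over all genes moved to 0.166 with DESeq2 and 0.134 with no filter, through the low genes added, and was -0.00106 and -0.0289 over the genes tested in edgeR. Ifng, with 0 to 7 counts per tumour, and Gbp2b did not pass the filter on low counts.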
